A study of Mus musculus with 2 samples.

Results

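Regulatory T cells (Tregs) are CD4+ T cells that hold back other immune cells, and the transcription factor Foxp3 fixes and maintains their identity. They act through the checkpoint receptor CTLA-4, which competes with CD28 for costimulatory ligands, through capture of interleukin-2 by the high-affinity receptor chain CD25 (Il2ra), through inhibitory cytokines such as interleukin-10, and through adenosine made by the surface enzymes CD39 (Entpd1) and CD73 (Nt5e). In tumors and in barrier tissues such as lung, many Tregs are antigen-experienced effector cells that carry ICOS, OX40 (Tnfrsf4), 4-1BB (Tnfrsf9), KLRG1 and the interleukin-33 receptor ST2 (Il1rl1), and these cells can limit anti-tumor immunity.

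Tregs were taken from 10x Genomics single-cell RNA-seq of 1 control library and 1 Dnmt1iECKO library, each from the YUMMER1.7 tumors of 3 pooled female mice aged 8 to 10 weeks. YUMMER1.7 is a mouse melanoma line selected after ultraviolet exposure. Dnmt1iECKO mice were Cdh5CreERT2;Dnmt1fl/fl;ZsGreenlsl/lsl, so that tamoxifen removes the maintenance methyltransferase gene Dnmt1 in cells that express the endothelial cadherin gene Cdh5 and turns on the ZsGreen reporter there. Tregs are not a target of this Cre driver. The control label reads C57BL/6, while the methods describe control mice with the same Cre and reporter and no floxed Dnmt1. The labels place the tumors under the skin, and the paper describes lung tumors after injection into the tail vein. Before loading, live CD31+ CD45- cells had been sorted, a gate that is meant to keep endothelial cells and to leave out leukocytes, so the T cells below are cells that came through that gate.

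Members were chosen by measured counts. A Treg was a cell with at least 500 detected genes, at most 10% mitochondrial counts, at least 1 UMI (unique molecular identifier, a count of 1 captured transcript) of Ptprc, which encodes CD45, of at least 1 of Cd3e, Cd3g and Trac, and of Foxp3, and with no UMI of Cd8a, Cd8b1, Rag1 or Dntt. These cells numbered 110 of the 18823 barcodes, 28 of 9301 in the control and 82 of 9522 in the Dnmt1iECKO library. Their UMIs summed to 457808 (control) and 1224397 (Dnmt1iECKO), with medians of 10489 and 10860 per cell. The libraries shared 29 barcodes, of which 0 was a Treg. With 1 library per condition no test of the condition is possible, and no p-value is given. Levels are the UMIs of a gene per 1000000 UMIs (CPM), both summed over a group of cells, and differences are log2 ratios of 2 such levels. All intervals of shares, levels and ratios are exact 95% intervals that cover counting error only, not the difference between mice.

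Most of the cells carried the markers of their label. Foxp3 itself (chromosome X, 7573644 to 7595245, GRCm38) was used to choose them, with a median of 4 UMIs per cell in both libraries and a maximum of 10 in the control and 17 in the Dnmt1iECKO library. The 4 markers that the choice did not use, Ctla4, Icos, Ikzf2 (Helios, a transcription factor of stable Tregs) and Tnfrsf4, were all detected together in 89.3% of the control Tregs (71.8% to 97.7%) and in 91.5% of the Dnmt1iECKO Tregs (83.2% to 96.5%). Foxp3-negative Cd4 T cells, defined as the same T cells with at least 1 Cd4 UMI and 0 Foxp3 UMIs, had all 4 in 22.2% of 117 control cells and 25.2% of 449 Dnmt1iECKO cells. In CD8 T cells the shares were 10.3% of 184 and 8.63% of 684.

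At the edge of the choice the markers were sparser. A single Foxp3 UMI had admitted 2 control and 13 Dnmt1iECKO Tregs, and of these 0 and 8 had all 4 other markers, against 25 of 26 and 67 of 69 with more Foxp3. Of the 13, 1 had none of the 4 markers, so its label rests on that 1 Foxp3 UMI. The 13 were also shallower, with a median of 6288 UMIs against 11640 in Dnmt1iECKO Tregs with more Foxp3. Just outside, 6 control and 14 Dnmt1iECKO T cells had Foxp3 and were left out for a UMI of Cd8a or Cd8b1, and every cell of these had all 4 markers. The smallest number of detected genes in a member was 2386 in the control and 662 in the Dnmt1iECKO library, and the highest mitochondrial share was 2.16% and 8.89%. The quality filters removed 1 control and 3 Dnmt1iECKO barcodes with Foxp3.

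Detection was also compared after thinning every cell to 2000 UMIs, since Tregs were somewhat deeper than the 8399 and 8634 median UMIs of the Foxp3-negative Cd4 T cells. Ctla4 was then seen in 96.4% of control and 95.1% of Dnmt1iECKO Tregs, against 50.4% and 47.7% of Foxp3-negative Cd4 T cells. Ikzf2 was seen in 82.1% and 87.7% of Tregs against 20.5% and 25.1%. Tnfrsf4 was seen in 71.4% and 74.1% against 31.6% and 25.7%. Il2ra was seen in 35.7% (18.6% to 55.9%) and 53.1% (41.7% to 64.3%) of Tregs against 9.40% and 4.70%. Endothelial cells, which should lack these genes and had medians of 10521 and 10916 UMIs, had a UMI of each of these 4 genes in at most 1.04% of cells, the level that free RNA can give. Foxp3 had 3 UMIs in 5188 control endothelial cells and 0 in 2118 Dnmt1iECKO endothelial cells.

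**Figure D1:**
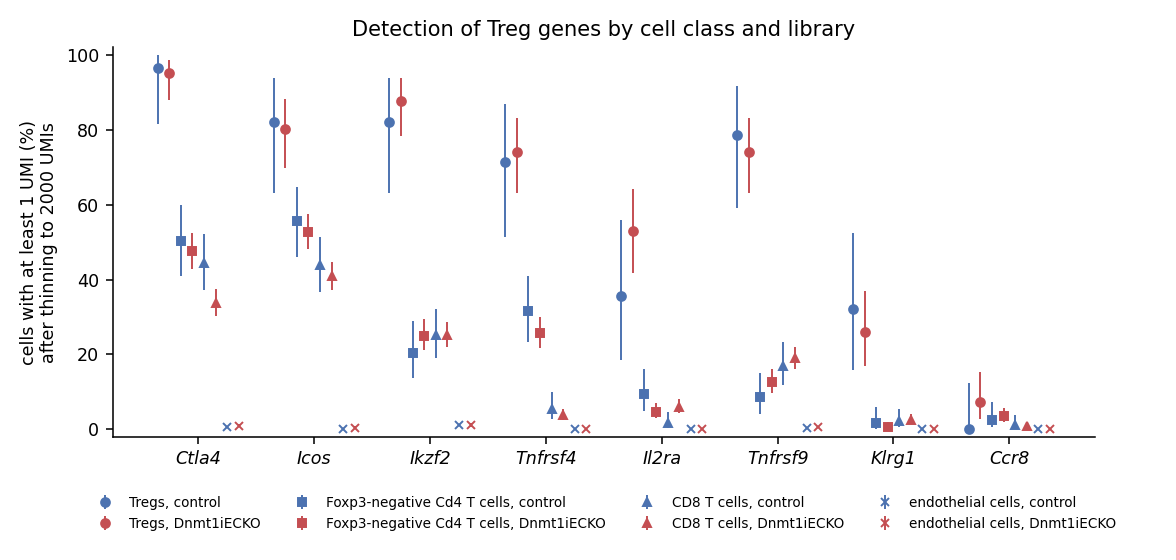
Percentage of cells with at least 1 UMI of each gene (vertical axis) after thinning each cell to 2000 UMIs, for 8 genes (horizontal axis), 4 cell classes (symbols) and 2 libraries (colours), with exact 95% binomial intervals. Ctla4, Ikzf2 and Tnfrsf4 separate the Tregs from both other T-cell classes in both libraries, while Ccr8 was low in every class.

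Some Tregs carried the RNA of a second cell type, and this touches every comparison between the libraries. UMIs of 10 endothelial, 6 fibroblast and mural, and 9 myeloid marker genes were summed in each Treg. In 4 of 28 control and 6 of 82 Dnmt1iECKO Tregs the sum was at least 147 and 90 UMIs, while it was at most 7 in every other Treg. These mixed cells were large, with a median of 49570.5 UMIs in the control and 32023.5 in the Dnmt1iECKO library against 9721.5 and 10474 in the others, and held 38.3% of all control Treg UMIs but 15.7% of those of the Dnmt1iECKO library. In the control, 1 such cell held 99.6% of the 2748 UMIs of Sftpc, a surfactant gene of alveolar type 2 cells. The endothelial list summed to 1479 CPM in control and 172 CPM in Dnmt1iECKO Tregs, and to 63.7 and 48.4 CPM without the mixed cells, against 12007 and 10199 CPM in endothelial cells. The myeloid list summed to 2073 and 1324 CPM, and to 46.0 and 57.2 CPM without them, and the fibroblast and mural list to 41.5 and 331 CPM, and to 31.9 and 8.72 CPM. Platelet and red cell markers summed to 21.8 and 16.3 CPM and immature thymocyte markers to 6.55 and 18.8 CPM. All 5 markers of NK and gamma delta T cells were at 0 in Tregs of both libraries. Log2 ratios between the libraries in Tregs are therefore also given without the 10 mixed cells where that turned their direction, carried them across 2-fold or moved them by over 1.5 times, a division made after the data had been seen.

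**Figure D2:**
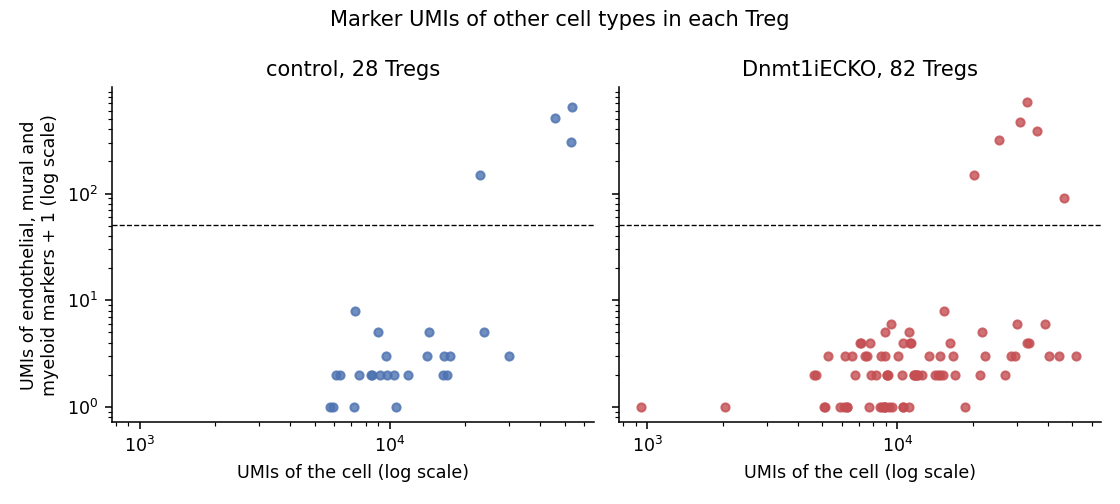
Summed UMIs of endothelial, fibroblast and mural, and myeloid markers plus 1 (vertical axis, log scale) against total UMIs (horizontal axis, log scale) for each Treg, by library. The dashed line is the minimum of 50 UMIs for a mixed cell, above which 4 control and 6 Dnmt1iECKO cells lie, and no cell lies between 7 and 90 UMIs.

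Tregs were 0.349% of the control cells (0.232% to 0.504%) and 1.01% of the Dnmt1iECKO cells (0.806% to 1.25%) that passed the quality filters, 2.90-fold more (1.87 to 4.63). All CD45-expressing cells moved with them, at 18.3% and 58.4% of cells, and the sort against CD45 stands between the tumor and these shares. Within leukocytes and T cells the shares differed by less than counting error. Tregs were 1.91% of control and 1.73% of Dnmt1iECKO cells with Ptprc, a log2 ratio of −0.14 (−0.77 to 0.53). Of all T cells they were 6.24% and 4.31%, a log2 ratio of −0.53 (−1.17 to 0.14). They were 11.3% of 248 control and 9.19% of 892 Dnmt1iECKO CD8-negative T cells, a log2 ratio of −0.30 (−0.93 to 0.38). Among T cells with a Cd4 UMI the shares were 17.0% and 13.7%, a log2 ratio of −0.32. After thinning to 2000 UMIs, Foxp3 was seen in 5.37% and 4.57% of CD8-negative T cells. The interval of each of these ratios includes 0, and with 28 control Tregs a moderately lower share in the Dnmt1iECKO library was not detectable.

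The first comparison within a library asked what sets Tregs apart from the Foxp3-negative Cd4 T cells beside them. In the control 4.59% of 6095 genes with at least 50 UMIs were at least 2-fold higher in Tregs and 9.89% at least 2-fold lower, and in the Dnmt1iECKO library 5.55% and 10.6% of 9372 genes. Of 5864 genes measured in both, 84 (1.43%) were at least 2-fold higher in both and 214 (3.65%) at least 2-fold lower in both. The highest was Klrg1, an inhibitory lectin receptor of terminally differentiated Tregs, with log2 ratios of 5.91 (4.75 to 7.39) in the control and 6.33 (5.49 to 7.30) in the Dnmt1iECKO library, from 258 against 4.28 CPM and 182 against 2.27 CPM. Gzmb, the cytotoxic protease granzyme B, had log2 ratios of 4.04 and 4.28. Il1rl1 had log2 ratios of 3.94 and 4.81, Tnfrsf9 of 3.86 and 3.35, and the cytokine gene Il10 of 3.08 and 3.05. Ikzf2 and its relative Ikzf4 (Eos, a Foxp3 partner) had log2 ratios of 3.51 and 3.14, and of 2.99 and 2.86. Areg, the tissue-repair ligand amphiregulin, had log2 ratios of 2.28 and 2.85, and Itgb8, an integrin chain that activates TGF-beta, of 4.44 and 2.25. Frmd5, Neb, Glrx, Ttn, Arl5a and Il2ra completed the 15 highest. Frmd5 and Ttn leaned on few cells, with 46.6% and 66.4% of their control Treg UMIs in 1 cell each.

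Among the 10 lowest were genes known from naive and helper T cells. Tcf7, a transcription factor of naive and stem-like T cells, stood at 28.4 CPM in Tregs against 306 CPM in Foxp3-negative Cd4 T cells of the control, and at 35.9 against 433 CPM in the Dnmt1iECKO library, log2 ratios of −3.43 and −3.59. Cd40lg, with which helper T cells license B cells and dendritic cells, had log2 ratios of −3.48 and −6.52. Tnfsf8, the CD30 ligand gene, had log2 ratios of −5.76 and −3.74, and Pde3b, a cyclic nucleotide phosphodiesterase, of −4.13 and −3.41. The lectin receptor gene Klrd1 had 0 and 2 UMIs in Tregs, against 66 and 254 in Foxp3-negative Cd4 T cells. Ehd3, Klrk1, St8sia1, Rflnb and Mfsd6 followed.

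**Figure D3:**
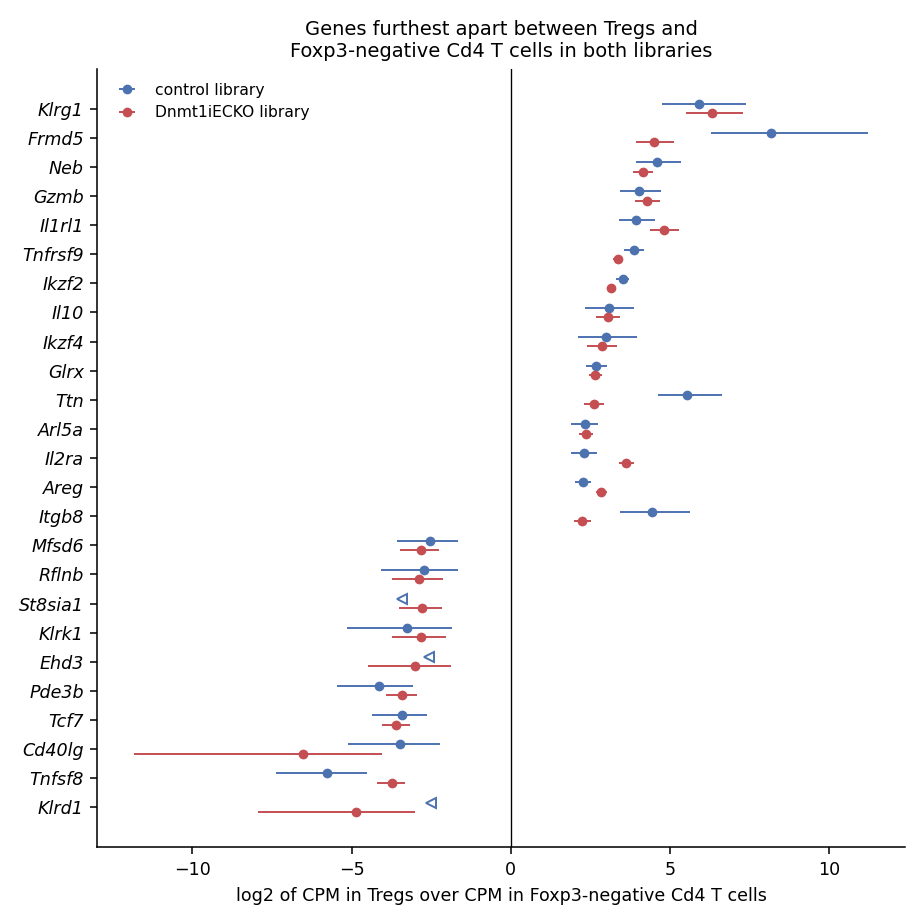
Log2 ratio of CPM in Tregs over Foxp3-negative Cd4 T cells (horizontal axis) for the 15 highest and 10 lowest genes (vertical axis), with exact 95% intervals and the library in colour. The highest were ranked by the smaller and the lowest by the larger of the 2 libraries' ratios. Open triangles mark the end of the interval nearest 0 for genes with 0 UMIs in control Tregs. By this choice of genes, the points of each gene lie on the same side of 0 in both libraries.

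Genes of suppression and of effector Tregs were mostly higher in Tregs. Of 15 measured genes of the list of suppression effectors and checkpoints, 14 were higher in Tregs in the control and 13 in the Dnmt1iECKO library. At least 2-fold higher were 8 and 9 of them, where 6.14% and 7.07% of all genes were. The list's median log2 ratio was 1.45 and 1.51, against −0.07 and −0.03 over all genes. Lrrc32, which encodes the TGF-beta docking receptor GARP, had log2 ratios of 4.25 and 3.87, and Havcr2, the TIM-3 checkpoint gene, of 1.71 and 1.72. Pdcd1, which encodes PD-1, was at −0.36 and −0.23. Of the 18 and 19 measured effector and tissue Treg genes, 15 and 17 were higher, with medians of 0.90 and 0.98. Itgae, the CD103 integrin chain that binds E-cadherin, had log2 ratios of 3.24 and 4.29, while Ccr8, a chemokine receptor of tumor Tregs, had 0.03 (−2.06 to 1.75) and −0.20 (−0.91 to 0.46) at 4 and 23 UMIs. Costimulatory receptors had medians of 0.59 and 0.66, with 8 of 10 higher in each library. The 4 markers without Foxp3 had medians of 1.88 and 1.86.

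Genes of resting and central Tregs lay on the other side. Of 10 such genes, 9 in the control and 10 in the Dnmt1iECKO library were lower in Tregs than in Foxp3-negative Cd4 T cells, 8 and 7 of them at least 2-fold, where 14.3% and 13.8% of all genes were. Their median log2 ratio was −2.21 and −1.26. Satb1, a chromatin organizer, had log2 ratios of −3.47 and −2.16, Bach2, a repressor that keeps T cells quiescent, −2.79 and −2.14, and Lef1 −2.44 and −2.66.

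Of the list of helper lineage regulators and cytokines, 5 of 7 measured genes were lower in control and 8 of 10 in Dnmt1iECKO Tregs. Ifng, the interferon gamma gene, had 0 UMIs in control Tregs (0 to 8.06 CPM) against 84.3 CPM in Foxp3-negative Cd4 T cells, and 9.80 against 51.2 CPM in the Dnmt1iECKO library. Il21, a cytokine of helper T cells, had 0 UMIs in Tregs of both libraries against 13.6 and 11.9 CPM. Trafficking receptors and integrins lay on both sides, with 10 of 18 measured genes higher in control and 11 of 20 in Dnmt1iECKO Tregs and medians of 0.09 and 0.04. The chemokine receptor gene Cxcr3 had log2 ratios of 0.70 and 1.36 in Tregs over Foxp3-negative Cd4 T cells, Ccr2 of 1.89 and 2.21, and Cxcr6 of −3.19 and −1.02. Of the IL-2 receptor chains, Il2ra had log2 ratios of 2.30 and 3.63, Il2rb of 0.84 and 1.45, and Il2rg, shared with other cytokine receptors, of 0.11 and 0.24. T cell receptor segments were too sparsely captured to follow clones. A Trbv segment was seen in 8 of 28 control Tregs, with 8 segments in 1 cell each, and in 29 of 82 Dnmt1iECKO Tregs, with 13 segments, of which Trbv19 was the most frequent in 8 cells. Trbv19 was also the most frequent in the Foxp3-negative Cd4 T cells of that library, in 31 of the 182 cells with a segment.

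Between the libraries, the identity genes of the Tregs were close to equal. Foxp3 had a level of 299 CPM (251 to 354) in control Tregs and of 345 CPM (313 to 380) in those of the Dnmt1iECKO library, a log2 ratio of 0.21 (−0.07 to 0.50) that was −0.22 (−0.51 to 0.08) without mixed cells. Ctla4 stood at 2069 and 2414 CPM, a log2 ratio of 0.22 (0.12 to 0.33) that was −0.08 (−0.20 to 0.03) without mixed cells. Icos had log2 ratios of 0.09 with and −0.33 without mixed cells, Ikzf2 of 0.38 and −0.01, and Tnfrsf4 of −0.01 and 0.06. Per cell, Ctla4 ran from 238 through a median of 2328 to 5107 CPM in control and from 0 through 2523 to 10178 CPM in Dnmt1iECKO Tregs, and the ranges of all 5 markers overlapped. None of these 5 markers was 2-fold apart, and the direction of each turned without the mixed cells.

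Most programme lists were likewise level. Of all 8270 genes with at least 20 UMIs, 8.22% were at least 2-fold higher and 8.00% at least 2-fold lower in Dnmt1iECKO Tregs, with a median log2 ratio of 0.02. Of the 15 suppression effectors and checkpoints, 0 passed 2-fold in either direction, with a median of 0.05. The medians were 0.06 for 10 costimulatory receptors, with 0 past 2-fold, and 0.06 for 19 effector and tissue Treg genes, with 1 past 2-fold, Ccr8 at 1.10 (−0.45 to 3.10) and at 0.59 without mixed cells. Transcription factors had a median of 0.16, IL-2 receptor and response genes of 0.03, T cell receptor signalling genes of 0.26 and trafficking receptors and integrins of 0.20, with 1, 0, 0 and 3 genes at least 2-fold higher. Without mixed cells the medians of these 7 lists lay between −0.16 and 0.08. Type I interferon response genes had a median of −0.11 and NF-kB targets of −0.09 (−0.25 without mixed cells). The 6 measured helper lineage genes had a median of −0.28, and of 0.04 without mixed cells.

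Single genes within these lists differed more. In control Tregs Il2ra stood at 293 CPM (245 to 347), and in Dnmt1iECKO Tregs at 469 CPM (431 to 509), a log2 ratio of 0.68 (0.41 to 0.96) and of 0.49 (0.18 to 0.81) without mixed cells. Its median per cell was 146 CPM in control and 359 CPM in Dnmt1iECKO Tregs, with overlapping ranges from 0 to 2071 and from 0 to 2524 CPM. In Foxp3-negative Cd4 T cells its log2 ratio between the libraries was −0.65 (−1.03 to −0.26). Nt5e stood at 162 and 314 CPM, a log2 ratio of 0.96 (0.59 to 1.34), and of 0.66 without mixed cells. Itgae had a log2 ratio of 0.80 (0.28 to 1.35). Lower in the Dnmt1iECKO library were Klrg1 at −0.50 (−0.83 to −0.17), Areg at −0.47 (−0.66 to −0.28) and the activation-induced nuclear receptor gene Nr4a3 at −1.15 (−1.49 to −0.81), which were −0.90, −0.72 and −1.61 without mixed cells.

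**Figure D4:**
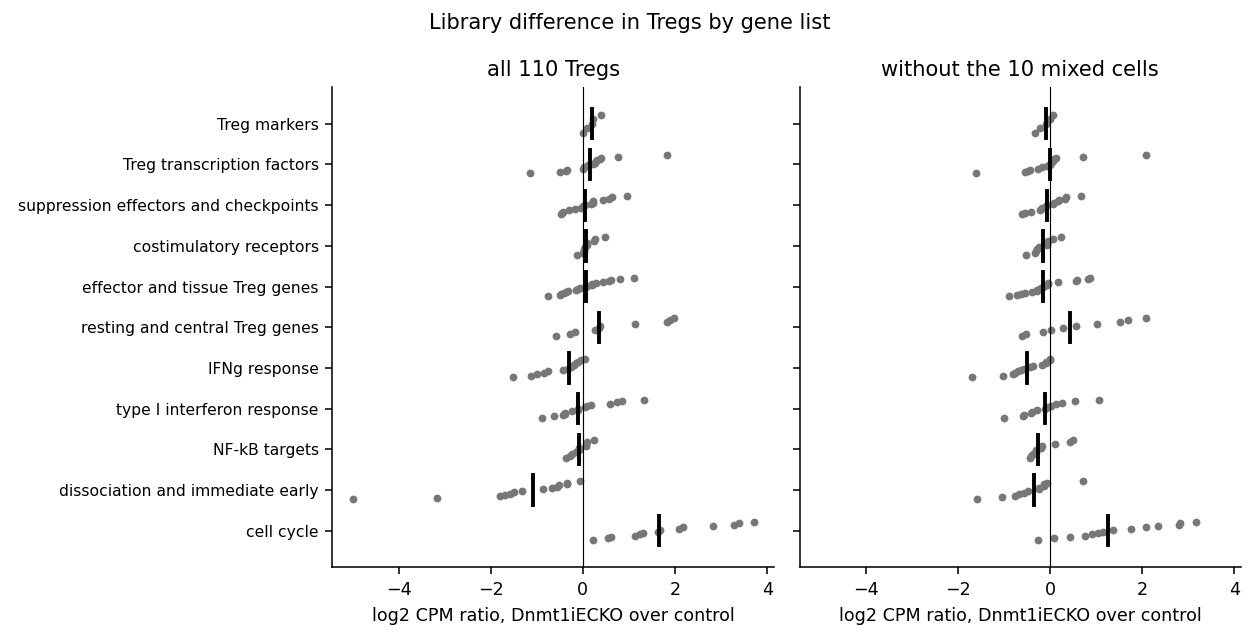
Log2 ratio of CPM in Dnmt1iECKO over control Tregs (horizontal axis) for each gene (grey points) of 11 lists (vertical axis) with the list median as a black bar, for all Tregs and without the 10 mixed cells, over genes with at least 20 UMIs in the cells shown. Cell cycle genes lie to the right in both panels, with medians of 1.66 and 1.25, and interferon gamma response genes to the left, with medians of −0.29 and −0.50.

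Cell cycle genes were the list furthest from 0. All 14 were higher in Dnmt1iECKO Tregs, 11 of them at least 2-fold, where 8.22% of all genes were, with a median log2 ratio of 1.66. Without mixed cells 13 were higher and 9 at least 2-fold higher, where 4.48% of genes with at least 50 UMIs were. That minimum is stricter than the 20 UMIs of list genes. Over all Tregs the share was 4.67% at 50 and 8.22% at 20 UMIs. The list's median without mixed cells was 1.25. With the mean of single-cell CPM in place of summed counts the median was 0.89. Mki67, which encodes the proliferation marker Ki-67, had 129 CPM (98.1 to 166) in control Tregs and 547 CPM (507 to 590) in Dnmt1iECKO Tregs, a log2 ratio of 2.09. Top2a, the topoisomerase that untangles DNA in dividing cells, stood at 109 and 491 CPM, a log2 ratio of 2.17. Over the list the log2 ratios ran from 0.22 for Mcm5, a subunit of the replicative helicase, to 3.71 for the cyclin gene Ccna2, which had 2 control UMIs. Mcm5, Mcm2 and Pcna were the 3 genes under 2-fold, and without mixed cells they were at −0.26, 0.42 and 0.09.

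The difference in sums lay in a few cells. In the median Treg the list summed to 584 CPM (control) and 661 CPM (Dnmt1iECKO). A summed level of at least 5000 CPM was reached by 2 of 28 control Tregs, or 7.14% (0.877% to 23.5%), and by 16 of 82 Dnmt1iECKO Tregs, or 19.5% (11.6% to 29.7%), a threshold chosen after the values had been seen. The 8 cells with the most UMIs of the list held 65.9% of its UMIs in the Dnmt1iECKO library, and the 3 such cells of the control held 58.3%. A looser count, at least 2 of the 14 genes after thinning to 2000 UMIs, gave 42.9% of control (24.5% to 62.8%) and 37.0% of Dnmt1iECKO Tregs (26.6% to 48.5%), a log2 ratio of −0.21 (−1.22 to 0.89). With at least 5 of the genes the shares were 7.14% and 13.6%, a log2 ratio of 0.93 (−1.27 to 4.14). Under each of these counts the intervals of the libraries overlapped, so a difference in the share of cycling Tregs was not detectable with this number of cells. Of the Foxp3-negative Cd4 T cells, 24.8% (17.3% to 33.6%) in the control and 23.5% (19.6% to 27.7%) in the Dnmt1iECKO library had at least 2 of the genes, and in both libraries this interval overlapped that of the Tregs. With at least 3 of the genes, 25.0% (10.7% to 44.9%) of control Tregs counted against 7.69% (3.58% to 14.1%) of Foxp3-negative Cd4 T cells. In the Dnmt1iECKO library these shares were 21.0% (12.7% to 31.5%) and 7.16% (4.95% to 9.96%), without overlap. Against the Foxp3-negative Cd4 T cells, 11 of 11 measured genes were higher in control and 14 of 14 in Dnmt1iECKO Tregs, with medians of 0.63 and 1.47. The list's median log2 ratio between the libraries was 0.86 in Foxp3-negative Cd4 T cells and −0.29 in CD8 T cells, and 0.54 and −0.43 without mixed cells.

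Interferon gamma response genes were lower in Dnmt1iECKO Tregs. Of 14 genes 13 were lower, 2 of them at least 2-fold, where 8.00% of all genes were, with a median log2 ratio of −0.29. Without mixed cells 13 were lower, with a median of −0.50. At least 2-fold lower were 2 of them, and 1.87% of genes with at least 50 UMIs. That minimum is stricter than the 20 UMIs of list genes. Over all Tregs the share was 4.69% at 50 and 8.00% at 20 UMIs. The genes past 2-fold were Iigp1 and Gbp5 over all Tregs, and Iigp1 and Gbp4 without mixed cells. Iigp1, an interferon-induced GTPase, had 579 CPM (511 to 653) in control Tregs and 202 CPM (177 to 228) in Dnmt1iECKO Tregs, a log2 ratio of −1.52 (−1.78 to −1.27) and of −1.69 without mixed cells. Per cell its median was 227 and 57.7 CPM, within ranges from 0 to 4126 and from 0 to 2024 CPM that overlapped. The guanylate-binding protein genes Gbp5 and Gbp4 had log2 ratios of −1.13 (−1.53 to −0.72) and −0.99 (−1.46 to −0.53), and of −0.76 and −1.01 without mixed cells. Irf1, a transcription factor of the response, had a log2 ratio of −0.83 (−1.07 to −0.60). Tap1, the peptide transporter gene, was the only member above 0 over all Tregs, at 0.05 (−0.35 to 0.47), and was at −0.08 without mixed cells.

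Per cell, the list summed to between 559 and 15317 CPM in control Tregs, with a median of 4139, and to between 821 and 13527 CPM in Dnmt1iECKO Tregs, with a median of 2874, so the cells of the libraries overlapped widely. In Foxp3-negative Cd4 T cells of the same libraries the list's median log2 ratio was 0.10 (−0.05 without mixed cells), with Iigp1 at 0.19 (−0.02 to 0.41), and in CD8 T cells it was 0.03, with Iigp1 at −1.19 (−1.33 to −1.05). Against the Foxp3-negative Cd4 T cells of their own library, 13 of 14 genes were higher in control Tregs, with a median of 0.89, and 8 of 14 in Dnmt1iECKO Tregs, with a median of 0.23 that was 0.62 without mixed cells.

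**Figure D5:**
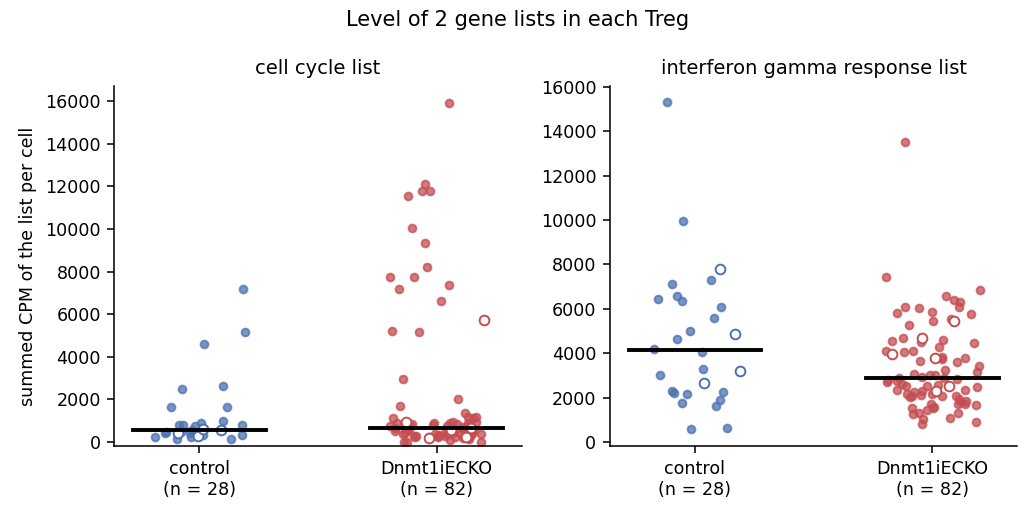
Summed CPM of the cell cycle list (left) and of the interferon gamma response list (right) in each Treg (vertical axis) by library (horizontal axis), with the median as a black bar and mixed cells as open circles. In the left panel 2 control and 16 Dnmt1iECKO cells reach at least 5000 CPM over medians of 584 and 661 CPM, and in the right panel the medians are 4139 and 2874 CPM.

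Resting and central Treg genes had a median log2 ratio of 0.36, and of 0.42 without mixed cells. At least 2-fold higher in the Dnmt1iECKO library were 4 of 10, where 8.22% of all genes were. Satb1 had 69.9 CPM (47.8 to 98.7) in control Tregs against 246 CPM (219 to 275), a log2 ratio of 1.81 (1.29 to 2.39). Ccr7, the lymph node homing receptor, stood at 43.7 and 172 CPM, a log2 ratio of 1.98 (1.32 to 2.72), with detection in 14.3% and 34.1% of the Tregs. The control levels of Satb1 and Ccr7 rested on 32 and 20 UMIs, with 37.5% and 60.0% of them in 1 cell each. Bach2 had a log2 ratio of 1.12 (0.67 to 1.60). The remaining gene past 2-fold, Igfbp4, was at 1.89 (1.03 to 2.88), and at 1.52 (−0.51 to 4.66) without mixed cells. It had 60.5% of its Dnmt1iECKO UMIs in 1 cell and was detected in 17.9% of control and 9.76% of Dnmt1iECKO Tregs. In Foxp3-negative Cd4 T cells the list's median was 0.49, with Satb1 at 0.51 and Ccr7 at 0.66.

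Genes of the response to tissue dissociation were lower in Dnmt1iECKO Tregs, by less without the mixed cells. All 14 were lower, 7 of them at least 2-fold, where 8.00% of all genes were, with a median log2 ratio of −1.09. Without mixed cells 11 of 12 were lower, with a median of −0.36. At least 2-fold lower were 2 of them, and 1.87% of all genes at the stricter minimum of 50 UMIs. Jun, an immediate early transcription factor gene, had a log2 ratio of −1.80 with and −0.23 without mixed cells, whereas Zfp36, which encodes an RNA decay factor, had −1.32 and −1.59. In Foxp3-negative Cd4 T cells all 14 were lower too, with a median of −0.49, and of −1.24 without mixed cells. In CD8 T cells 12 of 14 were lower, with a median of −0.26, and 11 of 14 without mixed cells, with a median of −0.41. In Tregs the list moved in the same direction as the interferon gamma genes and Nr4a3. In Foxp3-negative Cd4 T cells and CD8 T cells, where the list was lower too, the interferon gamma list had medians of 0.10 and 0.03. The part of dissociation in the Treg differences was not tested.

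Dnmt1 checks the deletion in endothelial cells only. Its level there was 49.7 CPM (48.0 to 51.4) without and 30.3 CPM (28.4 to 32.3) with the floxed allele, counted over all reads of the gene. In Tregs the corresponding levels were 72.1 CPM (49.6 to 101) and 158 CPM (136 to 182), for a log2 ratio of 1.13 (0.59 to 1.71) and of 0.75 (0.18 to 1.37) without mixed cells. Uhrf1, the partner that brings DNMT1 to replicating DNA, had a log2 ratio of 1.26 (0.38 to 2.28), and of 0.67 (−0.22 to 1.69) without mixed cells. Both genes are known to be higher in dividing cells, and whether this bears on their ratios was not tested. The 7 measured genes of the methylation machinery had a median of 0.12, and of 0.30 without mixed cells. The de novo methyltransferase gene Dnmt3a had a log2 ratio of −0.23 and the demethylase gene Tet2 of −0.03 (−0.11 without mixed cells).

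Ranked over all 5394 genes with at least 50 UMIs, 4.67% were at least 2-fold higher and 4.69% at least 2-fold lower in Dnmt1iECKO Tregs. The lowest were led by Sftpa1, Sftpc, Hspa1a, Lrg1 and Hpgd, with 99.8%, 99.6%, 43.3%, 95.4% and 42.1% of their control UMIs in 1 cell each, and the highest held Mgp, with 65.6% of its UMIs in 1 cell. Without mixed cells, 4.48% of 4441 genes were at least 2-fold higher and 1.87% at least 2-fold lower. The highest were then genes of dividing cells and Gdpd3. Tpx2, Hmmr and the histone genes Hist1h2bm and Hist1h2ap had 0 UMIs in control Tregs and 87, 74, 54 and 124 in Dnmt1iECKO Tregs, and the exact intervals of their log2 ratios began at 2.66, 2.42, 1.95 and 3.18. They came from 16, 11, 11 and 11 cells. Histone genes of this cluster are near-identical copies between which reads can be split, so their single values are uncertain.

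Gdpd3, which encodes a lysophospholipase D (chromosome 7, 126766334 to 126775649, GRCm38), was among the highest in both rankings. Over all Tregs it had 2 UMIs in the control and 372 in the Dnmt1iECKO library. It had 0 UMIs in the 24 control Tregs that were not mixed and 319 UMIs, or 309 CPM, in 51 of 76 Dnmt1iECKO Tregs, and the exact interval of its log2 ratio began at 4.56. The same direction was seen in the other cells of these libraries. Gdpd3 had 0 UMIs against 190 CPM in Foxp3-negative Cd4 T cells, 0.486 against 162 CPM in CD8 T cells, and 6.09 against 147 CPM in endothelial cells. Among the genes lowest without mixed cells, Arhgap31, a GTPase-activating protein gene, stood at 485 CPM in control and 34.9 CPM in Dnmt1iECKO Tregs, a log2 ratio of −3.80 (−4.37 to −3.26). It was at −2.91 (−3.15 to −2.67) in Foxp3-negative Cd4 T cells and −4.54 (−4.92 to −4.18) in CD8 T cells, but at 0.13 (0.11 to 0.16) in endothelial cells. Crbn, which encodes the E3 ligase receptor cereblon, and the gene of carboxypeptidase M (Cpm) were also lower in Tregs, at −2.09 and −1.89, in Foxp3-negative Cd4 T cells, at −1.27 and −3.80, and in CD8 T cells, at −1.11 and −2.13. Since each library is 1 pool with its own genotype, pool and Dnmt1 deletion cannot be told apart. Frmd5, Dhx40, Tmem158, Acss2, Irs2 and Acod1 were also among the 10 lowest, with 62.5% of the control UMIs of Acod1, 50.9% of those of Frmd5 and 50.4% of those of Dhx40 in 1 cell each.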

How the data were processed

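Deposited per library, 1 for the control and 1 for Dnmt1iECKO, was the authors' matrix of UMI counts, raw and limited to called cells, from Cell Ranger 9.0.1 with mm10 per the labels. The kit is named in more than 1 version in the sources. The files list 32285 genes, and 32235 of them had a position in GENCODE (GRCm38). Cells were chosen by the rule given above. Doublets were kept and left out only as an alternative (Scrublet in scanpy 1.11.5).

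Counts were summed per class and library. The CPM of such sums carry exact Poisson intervals. A ratio has the exact interval conditional on the sum of its counts, and a share the Clopper-Pearson interval, all at 95%. Against 0 UMIs the lower end of a ratio's interval is given. Thinning drew 2000 UMIs per cell. Ranked genes needed 50 UMIs, list genes 20, both summed over the groups compared. Ranked genes also had to be seen in at least 10% of the cells of the group where they were higher. For the genes lowest against Foxp3-negative Cd4 T cells that group was the Foxp3-negative Cd4 T cells. Ribosomal, mitochondrial and T cell receptor segment genes were left out of the rankings. Named genes are the 10 highest and 10 lowest between libraries, the 15 highest and 10 lowest against Foxp3-negative Cd4 T cells, and members of 16 programme lists of 189 genes and 8 lists of other cell types. The members and the lists were chosen with earlier results of these data known. The ratio function was tested on simulated data. Alternatives were other minima of genes, Foxp3 and UMIs, a mitochondrial limit of 5%, cells without Cdh5, no doublets, cell weights, size factors, thinning to 1000 UMIs and other comparison cells. Python 3.11.15, numpy 2.4.6, scipy 1.17.1, pandas 2.3.3 and matplotlib 3.10.9 were used. Values of some genes that the rule would name are not reported here.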

Additional observations from a re-analysis of the deposited data

How the results depend on the processing

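The Treg share of all cells, that of CD8-negative T cells before and after thinning, and the cycling share of Tregs stayed within their intervals under every alternative run, with log2 ratios of the share of all cells between 1.39 and 1.74. No paired analysis was possible because each condition has 1 library. Over 557 recomputed values, 533 stayed within the interval of the value reported (gene counts within 1.5 times), 24 moved outside it, and of values whose interval excluded 0 the number that changed direction was 0. Of these values 160 and 352 were list medians, whose range was set by ordered values of the member genes and not by counting error. Such a range can be wide, as −0.28 to 1.89 for resting and central Treg genes between the libraries. Staying within it is therefore a weak check. The cells with a Cdh5 UMI were left out of Tregs and T cells, not of all cells. The number of genes at least 2-fold lower in Dnmt1iECKO Tregs was 253, against 111 without Tregs with a Cdh5 UMI, 108 without the highest doublet scores, 83 without mixed cells (chosen after seeing the data) and 1057 with a minimum of 10 UMIs. The number at least 2-fold higher was 252, against 1049 with that minimum. Between the libraries, without Cdh5, without high doublet scores and without mixed cells in this order, list medians were −0.16, −0.13 and −0.081 for Treg markers, −0.21, −0.15 and −0.16 for costimulatory receptors, and 0.0024, 0.028 and 0.079 for trafficking receptors and integrins. Dissociation genes were at −0.099 without Cdh5 and −0.13 without high doublet scores, and NF-kB targets at −0.29 without high doublet scores. Against Foxp3-negative Cd4 T cells, dissociation genes in the control were at −1.20, −1.08 and −1.15 in the same order. NF-kB targets in the Dnmt1iECKO library were at 0.85 by the mean of single-cell CPM. With all Foxp3-negative CD8-negative T cells for comparison, the control cell cycle median was 0.078, and in the Dnmt1iECKO library T cell receptor signalling was at 0.35 and dissociation genes at −1.33. Alternatives without high doublet scores left out 3 of 28 and 4 of 82 Tregs. The 28 control Tregs limit every comparison between the libraries.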

Other observations

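A pair of genes listed as markers of other cell types was seen in most Tregs, and both were picked after their values were seen. Summed over their lists, epithelial markers stood at 1374 and 972 CPM and B cell markers at 436 and 533 CPM in Tregs without the mixed cells. Hopx, a homeodomain gene listed here as an alveolar marker, was detected in 96.4% of control and 85.4% of Dnmt1iECKO Tregs, at 996 and 836 CPM, against 270 and 192 CPM in Foxp3-negative Cd4 T cells. Ighm, the immunoglobulin mu chain gene, was detected in 82.1% and 73.2% of Tregs, at 312 and 430 CPM, against 106 and 85.4 CPM in Foxp3-negative Cd4 T cells.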
